A study of Mus musculus with 6 samples.

Results

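The genes of the NMDA receptor Grin1, Grin2a, Grin2b, Grin2d and Grin3a, together with the sequence beyond the annotated Grin2b end, were examined for clusters of CLIP tags of the RNA-binding proteins NOVA1 and NOVA2. Clusters were taken from both lists where 1 nt or more lay in the GENCODE vM1 span of a gene and the strand was that of the gene, and where they lay on the minus strand of the 79843 nt downstream of Grin2b (mm9, chr6:135600001-135679843). The rule gave 57 of the 9988 NOVA1 clusters (0.571%) and 131 of the 36591 NOVA2 clusters (0.358%), at 5 of 37310 annotated genes. The downstream stretch was chosen by its number of NOVA1 clusters, so that number is a description and not a finding. HITS-CLIP (ultraviolet crosslinking of proteins to the RNA they touch, immunoprecipitation of one of them and sequencing of the RNA fragments) had been performed for each protein on cortex of wild-type CD1 mice at embryonic day 18.5, with 3 biological replicates per protein. No gene deletion or treatment separated the libraries, and the antibody was the only labelled difference between them.

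NMDA receptors are glutamate-gated channels of excitatory synapses that pass calcium once the membrane is depolarised. Each receptor joins the obligatory subunit GluN1, encoded by Grin1, with GluN2 subunits encoded by Grin2a to Grin2d or GluN3 subunits encoded by Grin3a and Grin3b. In the developing cortex Grin2b is the prevailing GluN2 gene, and Grin2a rises after birth. NOVA proteins are neuronal RNA-binding proteins that recognise the tetramer YCAY, in which Y is C or U, and regulate alternative splicing as well as 3′ end use and RNA localisation.

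The tag count of a cluster was pooled over the 3 libraries of a protein, so values per library were not at hand and the spread among replicates could not be estimated for any difference below. The study defines its minimum of 10 tags as a peak height, and the lists carry no header; if the tag count is a height, the sums and densities of tags below are those of heights. The lists held 304703 NOVA1 tags and 1309270 NOVA2 tags in clusters of at least 10 tags, with medians of 16 and 18 tags per cluster. A fixed minimum admits weaker sites of the protein with more tags. In bulk cortex, fewer cells of a type and less RNA per cell cannot be told apart, and a tag count also depends on the amount of the RNA. All 6 neuronal marker genes examined held clusters in both lists (47 for NOVA1 and 111 for NOVA2), whereas of 8 markers of glia, vessels, microglia, blood and fibroblasts Olig1 alone held a cluster, of 12 NOVA1 tags.

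Grin2b, which encodes GluN2B, held 18 NOVA1 clusters with 436 tags and 78 NOVA2 clusters with 3150 tags, and the downstream stretch held 34 NOVA1 clusters with 868 tags and 20 NOVA2 clusters with 1021 tags. Of the clusters in the gene and beyond it, 34 of 52 of NOVA1 (65.4%) and 20 of 98 of NOVA2 (20.4%) were downstream. Of the tags, 66.6% and 24.5% were downstream. Relative to all tags in its list, the stretch took 0.285% of NOVA1 tags and 0.0780% of NOVA2 tags, while the Grin2b span took 0.143% and 0.241%. These values are descriptions, since the choice of the stretch for its NOVA1 clusters fixed the direction of the NOVA1 excess there.

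**Figure D1:**
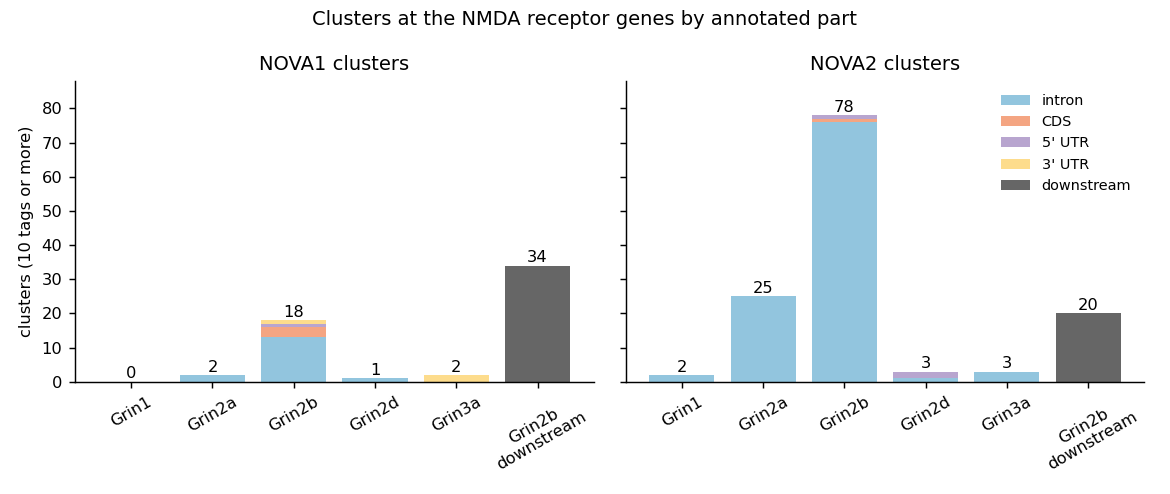
Bars give the number of clusters of at least 10 tags in each NMDA receptor gene and downstream of Grin2b, coloured by annotated part, for NOVA1 (left) and NOVA2 (right), with the total above each bar. The highest bar is the downstream stretch for NOVA1, at 34 clusters, and Grin2b for NOVA2, at 78.

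The sequences of the downstream clusters are shown first because this stretch holds most NOVA1 clusters of the receptor genes. Each is the RNA strand of the 30 nt with the most YCAY (CA with C or U on either side; neighbouring motifs may share 1 letter), with YCAY in capitals. The first 3 were found in both lists and are the one-to-one pairs of highest summed tag count. The fourth lies in the highest NOVA2 cluster, and the fifth and the sixth in the highest cluster found for NOVA1 alone and for NOVA2 alone.
Downstream pair of 101 NOVA1 and 98 NOVA2 tags, chr6:135675772-135675801: aauggaguauguuauguUCAUgcaggcugu
Downstream pair of 55 NOVA1 and 69 NOVA2 tags, chr6:135667221-135667250: ggcuugCCAUCACaaacuuaggucaaUCAC
Downstream pair of 48 NOVA1 and 76 NOVA2 tags, chr6:135674741-135674770: uggcugaugguaCCACuggucucUCACCAC
Highest NOVA2 cluster, 331 tags, chr6:135671514-135671543: gaaacauuagcaagCCACagcugaugCCAC
NOVA1 alone, 60 tags, chr6:135678029-135678058: uguguguucccugguacuggCCACagCCAU
NOVA2 alone, 15 tags, chr6:135672664-135672693: ggauaauuaacauuuuaaaguagaguCCAU

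These windows hold 1 to 3 YCAY. Of the 16086 windows of 30 nt outside clusters in the same stretch, 36.7% hold at least 1 and 1.08% at least 3, so the windows, which were chosen for their motifs, are shown for their letters and not for their density. The highest pair held a single YCAY in its best window.

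The downstream clusters were not spread over the whole stretch. Within successive bins of 5 kb from the annotated end there were 13, 12, 6, 2 and 1 NOVA1 clusters and 8, 8, 2, 1 and 1 NOVA2 clusters. The nearest lay 369 nt past the end for NOVA1 (13 tags) and 660 nt past it for NOVA2 (51 tags). The farthest overlapped each other, at 23842 nt for NOVA1 (10 tags) and 23847 nt for NOVA2 (29 tags). No cluster of either list lay in the remaining 55902 nt, nor did extending the search to 150 kb add one. Both lists had a long gap without clusters before the farthest one, of 7503 nt for NOVA1 and 7500 nt for NOVA2, whereas the median gap between neighbours was 182 nt and 499 nt. The opposite strand held no cluster of either protein, in the stretch or in Grin2b.

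**Figure D2:**
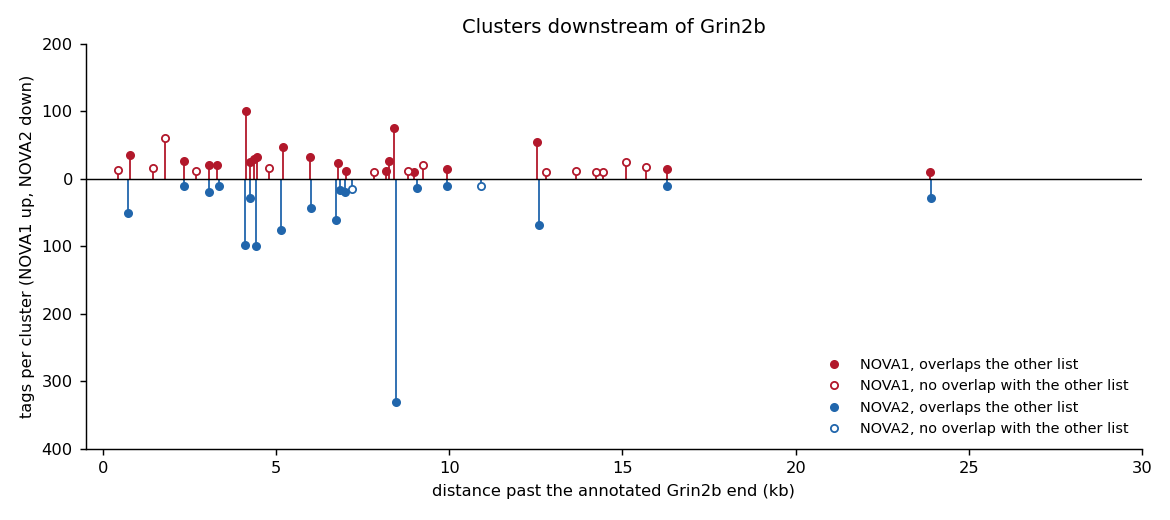
Each stem is a cluster downstream of Grin2b, placed by the distance of its midpoint past the annotated end in kb, with its height giving tags, NOVA1 upward and NOVA2 downward. Filled points overlap a cluster of the other list, and open points do not; the farthest cluster edge is at 23.9 kb.

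Clusters of NOVA1 covered 41.9% of the first 10 kb past the end and those of NOVA2 29.9%. In these 10 kb the density was 70.4 NOVA1 tags and 90.2 NOVA2 tags per kb, against 0.565 and 7.12 tags per kb in Grin2b introns. The annotated 3′ UTR of Grin2b (2275 nt) held 1 NOVA1 cluster of 10 tags (chr6:135681355-135681487) and no NOVA2 cluster, that is, 4.40 NOVA1 tags per kb. No comparison was drawn from these densities, because the stretch was chosen for its clusters. Whether the transcript of Grin2b runs on through the stretch was not tested, since the lists hold no RNA levels. None of the downstream clusters had a further near-identical copy in the genome, nor did 109 of the 111 NOVA2 clusters and all 23 NOVA1 clusters in the gene spans; the exceptions were NOVA2 clusters in introns of Grin2b, whose reads are uncertain.

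The 5 highest NOVA1 clusters of the stretch held 101, 75, 60, 55 and 48 tags. The first, at chr6:135675648-135675801, coincided with a NOVA2 cluster of 98 tags. The second, at chr6:135671383-135671476, lay within the highest NOVA2 cluster, of 331 tags and 607 nt, at chr6:135671090-135671696, which also overlapped NOVA1 clusters of 27 and 12 tags. The one of 60 tags (chr6:135677982-135678111) had no NOVA2 cluster over it, and is the highest of NOVA1 alone. The next NOVA2 clusters held 99, 98, 76 and 69 tags, and the one of 99 tags (chr6:135675308-135675531) covered NOVA1 clusters of 33 and 30 tags. Except for the 60-tag cluster, the highest NOVA1 sites were therefore also NOVA2 sites.

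Of the downstream NOVA1 clusters 58.8% overlapped a NOVA2 cluster (20 of 34), beside 80.1% of the whole NOVA1 list and 76.7% of NOVA1 clusters within 10 kb downstream of any gene. Of the downstream NOVA2 clusters 90% overlapped a NOVA1 cluster (18 of 20), beside 22.1% of the whole NOVA2 list and 38.8% of NOVA2 clusters within 10 kb downstream of a gene. A stretch picked for many NOVA1 clusters raises the share of NOVA2 clusters that meet one and lowers the reverse share, so nothing is read from these shares. The 14 NOVA1 clusters without overlap held 10 to 60 tags with a median of 12.5, and the 20 with overlap held 10 to 101 with a median of 25.5. The NOVA2 clusters without overlap held 15 and 10 tags. When a minimum of 20 tags was set in both lists, 17 NOVA1 and 11 NOVA2 downstream clusters remained, and with a minimum of 30 tags 9 and 8, so that the surplus of NOVA1 clusters shrank as the minimum rose. When the minimum of NOVA2 was raised until both lists were about equally long, 32.4% of the downstream NOVA1 clusters overlapped a NOVA2 cluster.

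Grin2b was compared with 673 protein-coding genes that held clusters in an intergenic stretch of up to the same length beyond their end, of 21595 genes with such a stretch. Since Grin2b was selected on its NOVA1 count, its first place by NOVA1 clusters is given without further reading; Slc8a1, a sodium-calcium exchanger gene, and Bmpr2, a BMP receptor gene, followed with 14 each. By NOVA1 tags it was number 4. By NOVA2 it was number 3 by clusters, after Slitrk1 with 28 and Slc8a1 with 21, and number 7 by tags, but 18 of its 20 NOVA2 clusters overlapped the NOVA1 clusters behind the choice, so this rank is not independent of it. More NOVA1 than NOVA2 clusters downstream were counted at 11.7% of these genes (79 of 673). More NOVA1 clusters downstream together with fewer in introns, the arrangement at Grin2b, occurred at 11.7% of the genes with both kinds (42 of 358). Beyond the annotated ends of Grin1, Grin2a, Grin2d and Grin3a no cluster of either protein was found, in stretches of 18742, 79843, 938 and 63734 nt.

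In the introns of the receptor genes there were 107 NOVA2 and 16 NOVA1 clusters, beside 27293 and 4022 intron clusters in the whole lists. The NOVA2 surplus in these introns was thus near that of the lists. Over the 5 gene spans, introns held 69.6% of NOVA1 clusters (16 of 23, Wilson 95% interval 49.1 to 84.4) and 96.4% of NOVA2 clusters (107 of 111, 91.1 to 98.6), compared with 45.6% and 83.9% of all clusters of each list that lay in genes. Intervals of this kind cover counting error only. With the downstream stretch counted in, the shares were 28.1% (16 of 57, 18.1 to 40.8) and 81.7% (107 of 131, 74.2 to 87.4), beside 40.3% and 74.6% of the whole lists, so that NOVA1 lay above the list in one count and, with the chosen stretch, below it in the other, where its interval still included the share of the list. Every one of the 16 NOVA1 intron clusters overlapped a NOVA2 cluster (80.6 to 100%), near the 95.5% of all NOVA1 intron clusters. Of the NOVA2 intron clusters 15.0% overlapped a NOVA1 cluster (16 of 107, 9.42 to 22.9), near the background of 14.1%. The sharing of intron sites was thus close to that of introns in general. The shared NOVA2 intron clusters held a median of 73.5 tags (14 to 202) and the unshared ones 17 (10 to 133). With at least 20 tags in both lists, introns held 44.4% of the NOVA1 clusters of the gene spans, and 8% of the NOVA2 intron clusters were shared.

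The shared intron pairs of highest summed tags in Grin2b, and the highest intron cluster of NOVA2 alone, are shown for comparison with the downstream sites.
Grin2b intron pair of 43 NOVA1 and 193 NOVA2 tags, chr6:135833519-135833548: ucuCCAUCAUCCACcagcauuuagcaUCAU
Grin2b intron pair of 31 NOVA1 and 202 NOVA2 tags, chr6:136074882-136074911: ccCCAUgacauuuUCAUacauauaugCCAU
Grin2b intron pair of 30 NOVA1 and 142 NOVA2 tags, chr6:136076860-136076889: uUCACucuacucugaaggUCAUucuuUCAC
Grin2b intron, NOVA2 alone, 133 tags, chr6:136001139-136001168: aucUCACugauaUCAUuuguCCAUuuUCAU

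These windows hold 3 or 4 YCAY. Of the 1045126 windows of 30 nt outside clusters in introns of the 5 genes, 1.30% hold at least 3. As the windows shown were chosen for their motifs, they too are shown for their letters and not for their density. Within Grin2b, clusters fell in the long introns. Intron 3 (127096 nt) held 7 NOVA1 and 32 NOVA2 clusters, intron 4 held 3 and 17, intron 5 held 1 and 11, intron 6 held 2 and 10, and intron 11 held 0 and 6. The remaining Grin2b introns held none. Per 100 kb the NOVA2 count in these introns ranged from 13.8 in intron 5 to 25.2 in intron 3.

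**Figure D3:**
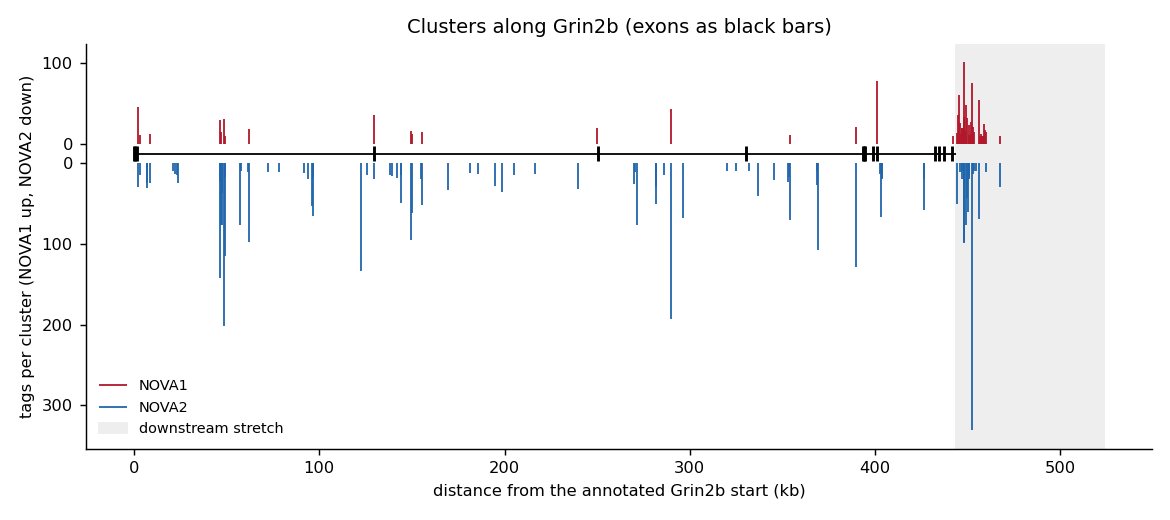
Clusters along Grin2b by distance from the annotated start in kb, with line length giving tags, NOVA1 upward and NOVA2 downward, black bars marking exon positions and shading the downstream stretch. NOVA2 lines run through the long introns, with the highest there at 202 tags. Lines of both proteins crowd at the beginning of the shaded stretch, where the highest NOVA2 line is at 331 tags.

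The median distance of intron clusters to the nearest exon of the longest transcript of their gene was 32580.5 nt for the 16 NOVA1 clusters and 24406 nt for the 107 NOVA2 clusters. No NOVA1 cluster and 3 NOVA2 clusters lay within 500 nt of an exon, beside 12.7% of all NOVA1 and 10.4% of all NOVA2 intron clusters measured to exons of any gene, a measure by which 0 and 3 of the clusters at the receptor genes were within 500 nt as well. The introns of the members are long, which allows larger distances. The NOVA2 clusters were a cluster of 14 tags 341 nt from an exon in intron 20 of Grin1, one of 10 tags at 201 nt in intron 13 of Grin2a, and one of 13 tags at 180 nt in intron 7 of Grin3a. All were near the minimum of 10 tags. In Grin2b none was that close.

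Where a cluster of one list matched a single cluster of the other, the tag counts could be compared between parts of the genes. The 14 downstream pairs had a median NOVA1/NOVA2 tag ratio of -0.25 on the log2 scale (quartiles -0.48 and 0.35, range -1.54 to 1.24), and the 16 intron pairs one of -2.30 (quartiles -2.58 and -1.63, range -3.52 to -0.35). Library size enters this ratio equally at each pair, so for these pairs it cancels in the difference of 2.06 between the parts. Which pairs exist does depend on library size, because both clusters had to reach 10 tags. The size of the difference can therefore depend on it too. In the whole series the corresponding medians were -0.60 for 374 pairs within 10 kb downstream of genes, -2.04 for 3452 intron pairs and -0.40 for 2146 pairs in 3′ UTRs, a difference of 1.44 between downstream and intron pairs and of 1.63 between 3′ UTR and intron pairs. The contrast at Grin2b therefore had the direction of the whole series, and is a description, as the stretch was chosen for its NOVA1 clusters. NOVA1 tags at least equalled NOVA2 tags in 6 of 14 downstream pairs (16.8% of all pairs of the series and 26.5% of its downstream pairs) and in 0 of 16 intron pairs (2.75% of intron pairs of the series). As every pair had to pass the minimum of 10 tags in both lists, sites weak in one list are missing.

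**Figure D4:**
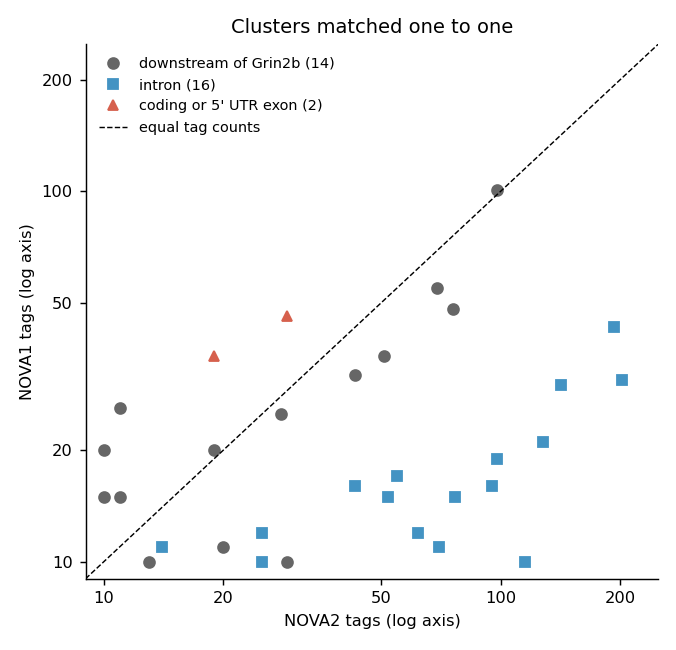
NOVA1 tags against NOVA2 tags, on log axes, for the 32 clusters matched one to one, with the dashed line marking equal counts. All 16 intron pairs lie below the line, the 14 downstream pairs lie on both sides of it, and both exon pairs lie above it.

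Exonic clusters of Grin2b numbered 3 for NOVA1 and 1 for NOVA2 in coding sequence. In the 5′ UTR there were 1 and 1, and in the 3′ UTR 1 and 0. Introns held 45.6% of all NOVA1 and 83.9% of all NOVA2 clusters in genes, so the exon share was larger for NOVA1 in general. Exon 5 held a cluster of 20 NOVA1 tags in coding sequence (chr6:135873257-135873491) with no NOVA2 cluster over it. In exon 4, coding sequence at chr6:135993912-135994170 held 36 NOVA1 and 19 NOVA2 tags, and in exon 3 the 5′ UTR at chr6:136121495-136121682 held 46 and 29. Both exon pairs had more NOVA1 tags, with log2 ratios of 0.92 and 0.67, unlike any intron pair. No median over coding or 5′ UTR pairs of the whole series is at hand, so nothing is read from these 2 pairs. The sequences of both shared exonic sites and of sites in Grin3a and Grin2d are as follows.
Grin2b coding sequence, 36 NOVA1 and 19 NOVA2 tags, chr6:135993952-135993981: uuUCAUuucugcucagacucUCACccCCAU
Grin2b 5′ UTR, 46 NOVA1 and 29 NOVA2 tags, chr6:136121639-136121668: gcucuCCACacccugagauucccuuUCACa
Grin3a 3′ UTR, NOVA1 alone, 35 tags, chr4:49676164-49676193: agguuCCAUcccuuagCCAUucCCACCCAU
Grin2d 5′ UTR, NOVA2 alone, 40 tags, chr7:53122195-53122224: gccuucucUCACccaacuuuccccucUCAU

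Grin2a, which encodes GluN2A (chr16:9577803-9995014, minus strand), resembled the intron part of Grin2b and had no downstream part. It held 2 NOVA1 clusters of 10 and 17 tags and 25 NOVA2 clusters with 551 tags, all in introns. Intron 3 (230136 nt) held both NOVA1 clusters and 21 of those of NOVA2. The NOVA1 clusters coincided with NOVA2 clusters of 25 and 55 tags. The highest cluster was of NOVA2 alone, with 120 tags in intron 12 (chr16:9608919-9609328), and contained 48 YCAY in 410 nt. The annotated 3′ UTR of Grin2a is 120 nt long and held no cluster. Per 100 kb Grin2a had 5.99 NOVA2 clusters, against 17.6 in Grin2b.

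Grin3a, which encodes the glycine-binding subunit GluN3A (chr4:49674483-49858616, minus strand), was the only one of the 5 genes in which the lists shared no cluster while both had some. NOVA1 had 2 clusters, of 35 tags (chr4:49675996-49676232) and 10 tags, both in the annotated 3′ UTR of 9520 nt. NOVA2 had 3 clusters in introns, of 29, 13 and 12 tags. Over the whole lists 73.9% of NOVA1 3′ UTR clusters and 14.1% of NOVA2 intron clusters overlapped the other list. With 2 and 3 clusters, nothing is read from the lack of sharing.

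Grin2d, which encodes GluN2D (chr7:53087253-53126298, minus strand), had a shared site in intron 9 with 16 NOVA1 and 43 NOVA2 tags, and NOVA2 clusters of 40 and 39 tags in the 5′ UTR of exon 1. Grin1, the gene of the obligatory subunit (chr2:25146701-25174707, minus strand), had no NOVA1 cluster and 2 NOVA2 clusters of 18 and 14 tags, in introns 5 and 20. Of the 3′ UTR clusters of all 5 genes, 3 were of NOVA1 and 0 of NOVA2. Of the NOVA1 ones 0 of 3 overlapped a NOVA2 cluster (Wilson upper limit 56.1%), beside 73.9% of all NOVA1 clusters in 3′ UTRs. The limit treats the 3 as independent, but 2 of them are neighbours in the 3′ UTR of Grin3a, so nothing is read from it. At the minimum of 10 tags were 10 of the 57 NOVA1 and 16 of the 131 NOVA2 clusters, and at 12 tags or less 19 and 32.

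YCAY was denser in clusters than outside them, and denser in intron clusters than in downstream ones. Counted on the RNA strand, downstream clusters held 28.2 YCAY per 1000 positions for NOVA1 and 30.1 for NOVA2, against 17.0 in the sequence between them, a ratio of 1.66 and 1.77. In introns of the 5 genes the clusters held 53.2 and 47.7 against 17.8 outside, a ratio of 2.99 and 2.68. In introns of Grin2b alone the clusters held 48.2 and 38.8 against 17.6 outside, a ratio of 2.75 and 2.21. The contrast with the downstream clusters was thus smaller within Grin2b. Cluster width was not matched between the parts, and downstream clusters were wider. For NOVA1 there were 5880 positions in 34 downstream clusters and 1692 in 16 intron clusters. For NOVA2 there were 3420 in 20 and 13824 in 107. The downstream NOVA1 clusters that overlapped a NOVA2 cluster held 34.3 and the others 21.9. Beyond the farthest downstream cluster the density was 18.6. At least 1 YCAY was present in 33 of 34 NOVA1 and 20 of 20 NOVA2 downstream clusters and in all intron clusters of the members. The downstream cluster without one held 17 NOVA1 tags (chr6:135664095-135664237), and is named after its value was seen.

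**Figure D5:**
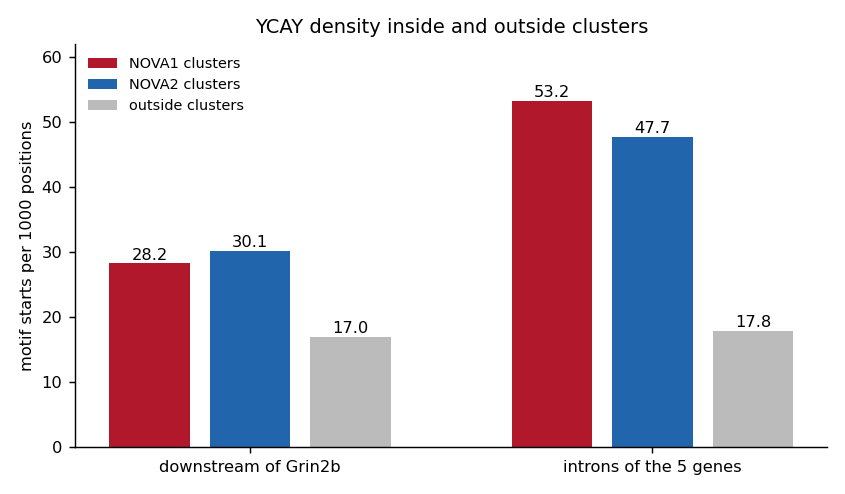
Bars give YCAY starts per 1000 positions on the RNA strand in NOVA1 clusters, NOVA2 clusters and the sequence outside clusters, downstream of Grin2b (left) and in introns of the 5 genes (right). Clusters exceed the sequence outside them in both parts, with 53.2 and 47.7 in introns and 28.2 and 30.1 downstream.

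The intron density differed between the genes. NOVA2 clusters in introns of Grin2a held 76.1 YCAY per 1000 positions (12.8 to 149 per cluster) and those in introns of Grin2b 38.8 (10.2 to 65.2), although the sequence outside clusters was alike, with 18.2 and 17.6. Grin2a thus had the higher motif density in its clusters and the lower tag density, with 1.34 NOVA2 tags per kb of intron against 7.12 in Grin2b.

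Of 21 further genes of the receptor family and its postsynaptic partners, 13 held NOVA1 and 16 held NOVA2 clusters, 78 and 402 in all, of which 50 and 380 were in introns and 14 and 15 in 3′ UTRs. NOVA2 had more clusters in 11 of them and NOVA1 in 3, and 5 had none, among them the subunit genes Grin2c and Grin3b. The matching shares over all annotated genes were not computed, and the NOVA2 list is the longer one (36591 against 9988 clusters). These counts are therefore descriptions and not a trait of these genes. Dlg2, which encodes the scaffold PSD-93, held 26 NOVA1 and 252 NOVA2 clusters. Dlgap1, which encodes a scaffold binding PSD-95, held 10 and 66. Shank1, which encodes a scaffold of the postsynaptic density, held 16 and 12, one of the cases with more NOVA1 clusters. By tags Shank1 had fewer for NOVA1 than for NOVA2 (852 against 2466). Within 10 kb downstream of these 21 genes there were 8 NOVA1 and 7 NOVA2 clusters, and 25 and 16 at Grin2b alone. As the stretch beyond Grin2b was chosen for its NOVA1 clusters, which most of its NOVA2 clusters overlap, nothing is read from this difference.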

How the data were processed

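NOVA1 and NOVA2 HITS-CLIP had been performed on cortex of wild-type CD1 mice at embryonic day 18.5. Per the methods and the submitters' processing notes, tags were aligned to mm9 with Novoalign and PCR duplicates were removed. The authors deposited 1 list per protein, with clusters found in at least 2 of 3 replicates. The deposited tag counts per cluster (at least 10) were pooled over replicates and not scaled to library size; the cluster caller is not given in the sources used here.

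Clusters were classified by the GENCODE vM1 part with most of their nucleotides (coding sequence over UTRs over noncoding exons over introns where annotations coincide), and were called shared when overlapping by at least 1 nt on 1 strand. Sequence was read from NCBIM37, the same build. Near-identical copies were sought with BLAST+ 2.17.0 (at least 90% identity over 50% of the length). Python 3.11.15, NumPy 2.4.6, pandas 2.3.3 and SciPy 1.17.1 were used, and the functions were tested on simulated data. Shares carry Wilson 95% intervals, which cover counting error only; no test between proteins was made, because pooled counts carry no replicate error.

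The members, gene lists and markers were chosen with earlier results of these data known. The clusters named are the 5 highest, the nearest, the farthest and the highest unshared downstream of Grin2b in each list, the highest of each class in each gene (with 1 exception, not reported here), and intron clusters within 500 nt of an exon; others are named for counts of 5 or fewer. Sequences are those of the highest pairs and highest unshared clusters. Alternatives changed the tag minimum, overlap, classes, downstream length, merging, motif and background.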

Additional observations from a re-analysis of the deposited data

How the results depend on the processing

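Of 53 alternative values for 14 results, 36 stayed within 1.5 times the value (counts and ratios), its interval (shares) or its quartiles (medians), and 17 moved. A count or share of 1 list has no direction to change. Only the medians and the motif ratios could change direction, and 0 of them did. With at least 20 tags in both lists the downstream clusters numbered 17 for NOVA1 and 11 for NOVA2, and with at least 30 tags 9 and 8; NOVA2 had 10 with a minimum of 25 tags for NOVA2 alone and 8 when its list was cut to the length of the NOVA1 list (a minimum of 31 tags). NOVA1 clusters stayed more numerous in each setting that changed both lists. As the stretch was chosen for its NOVA1 clusters, nothing is read from this. In the last 2 settings the shared share of downstream NOVA1 clusters fell to 38.2% and 32.4%, that of downstream NOVA2 clusters rose to 100% in both, and that of NOVA2 intron clusters rose to 34.9% and 38.2%; fewer NOVA2 clusters enter by construction. With at least 20 tags in both lists the shared share of NOVA2 intron clusters was 8%, and introns held 44.4% of NOVA1 clusters in the gene spans. Counting UCAU alone gave ratios of 2.53 and 2.97 downstream for NOVA1 and NOVA2 and 4.70 in NOVA1 intron clusters. The share of shared sites thus depends on the tag minimum, and depth per library is not known from the lists. No paired analysis was possible because each deposited count is a sum over all libraries of its protein, and no library could be left out for the same reason.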
